A study of Mus musculus with 12 samples.

Results

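Adipocytes were compared with the stromal vascular cells (SVCs) of the same fat depot, the epididymal adipose tissue (EAT), in mice on a high-fat diet. It used 6 of the 12 libraries of the series, chosen by their labels: 3 of EAT adipocytes and 3 of EAT SVCs. The mice of every group were male C57BL/6J, an inbred laboratory strain, and had been on the diet for 10 weeks, starting when they were 8 weeks old. No mice on another diet were among the 12 libraries. The other 6 libraries, adipocytes and SVCs of inguinal adipose tissue (IAT), were left out of the fit and used only to see whether a difference recurred. EAT is a visceral fat depot next to the male gonad, and IAT is a subcutaneous depot.

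Adipocytes store triglyceride in a single large lipid droplet, release fatty acids from it between meals and secrete hormones. They are separated from the other cells of the tissue by digestion with collagenase, after which fat-laden cells float and the remaining cells can be collected as the SVC fraction. That fraction is a mixture, which is known to hold adipocyte precursors and fibroblasts, macrophages and other immune cells, endothelial cells and mural cells of vessels. Obesity is known to bring macrophages into epididymal fat. A fraction is thus a bulk sample, in which fewer cells of a type and less RNA per cell cannot be told apart.

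The tables gave each gene as a set of UCSC transcript identifiers, with no gene symbol, and none of the reference tables used here held such an identifier. The labelled fractions were therefore not checked against adipocyte, macrophage, fibroblast or endothelial markers. The fractions are described below by numbers of genes, by properties that the tables give for every gene (level, length and number of transcripts), and by 4 single genes given by identifier. Whether the replicates are separate animals is not stated in the labels. The p-values then speak only of the spread among these libraries, which may be technical.

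The 3 EAT adipocyte libraries held 20707325, 20896062 and 23029617 expected counts, and the 3 EAT SVC libraries 24132942, 21812035 and 26349357. At least 1 count was seen for 17574, 17605 and 17851 genes in adipocytes and for 19097, 18960 and 19144 genes in SVCs, so that every SVC library showed more genes than any adipocyte library. EAT adipocyte replicate 2 stood apart. Its correlation across genes was r = 0.949 with replicate 1 and 0.953 with replicate 3, while replicates 1 and 3 reached 0.990 between them. The 3 SVC libraries lay at 0.989 to 0.992 among themselves. Counts and differences that rest on this library are given with and without it.

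Fewer genes made up the bulk of the RNA in the EAT adipocyte libraries than in the EAT SVC libraries, although the spread among 3 libraries limits this. In TPM, the authors' level corrected for transcript length and library size, 50% of all transcripts came from the 305, 187 and 293 most abundant genes in the adipocyte libraries, and from the 358, 396 and 329 most abundant in the SVC libraries. The groups did not overlap, and the exact two-sided permutation test gave p = 0.1, the smallest that 3 against 3 libraries can give. Without adipocyte replicate 2, which had the lowest number, the exact permutation test gave p = 0.2. At least 1 TPM was reached by 12936, 12379 and 13054 genes in adipocytes and by 14042, 14127 and 14105 genes in SVCs (exact permutation p = 0.1, and p = 0.1 without adipocyte replicate 2).

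The question of the comparison was which genes distinguish the lipid-storing cells from the other cells of the same depot. Of 15179 genes tested, 4051 were higher in EAT adipocytes and 3929 were higher in EAT SVCs (edgeR's quasi-likelihood test, adjusted p below 0.05), which is 52.6% of the genes tested. Adipocytes were higher for 26.7% and SVCs for 25.9%, so the calls were split evenly. Without adipocyte replicate 2 there were 5158 (33.2%) and 5177 (33.4%) of 15516 genes, or 66.6% in all. The number higher in adipocytes was more than 1.5 times lower without SVC replicate 1 (2535) or SVC replicate 2 (2523). With library size alone as the scaling, the split was 3119 against 4564, and the median log2 difference of all genes moved from 0.00 to -0.19. The common coefficient of variation between replicates was 0.246 with adipocyte replicate 2 and 0.118 without it.

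The large differences were not split evenly. A difference of 4-fold or more in favour of adipocytes was shown by 697 genes (4.59% of the genes tested), and in favour of SVCs by 1584 (10.4%). Without adipocyte replicate 2 the numbers were 590 (3.8%) and 1739 (11.2%). Of the 697 genes, 559 stayed at least 4-fold higher without that library and 693 were still called. Of the 1584 genes, 1449 stayed at least 4-fold and all 1584 were still called in the same direction. At 16-fold or more there were 242 adipocyte genes and 251 SVC genes, and 224 and 306 without replicate 2. Small differences leaned the other way: 1727 of the genes higher in adipocytes and 927 of those higher in SVCs differed by less than 2-fold (3377 and 1960 without replicate 2).

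The 2 classes sat at different levels. In CPM, the count scaled to library size, the 697 adipocyte genes had a median of 22.2 in adipocytes and 1.44 in SVCs, and the 1584 SVC genes a median of 5.22 in SVCs and 0.645 in adipocytes. Most of the SVC genes with large differences were thus weakly expressed in the mixture. When the tested genes were divided into 4 equal groups by their mean level over the 6 libraries, the lowest group held 983 of the 1584 SVC genes and 293 of the 697 adipocyte genes. In that lowest group, below 3.71 CPM, adipocytes were higher for 578 genes and SVCs for 1625. In each of the 3 groups above it more genes were higher in adipocytes, with 1125 against 912, 1235 against 755 and 1113 against 637. These numbers were 1315 against 1162, 1634 against 1076 and 1603 against 1007 without adipocyte replicate 2, and 574 against 1771 in the lowest group. With library size alone as the scaling the first 2 of these turned, to 872 against 1056 and 917 against 939, and the last became even, at 833 against 822. A weakly expressed gene could pass the filter on low counts through the libraries of 1 fraction alone, the one in which it was higher. The part of this filter in the lean of the lowest group to SVCs was not tested.

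**Figure D1:**
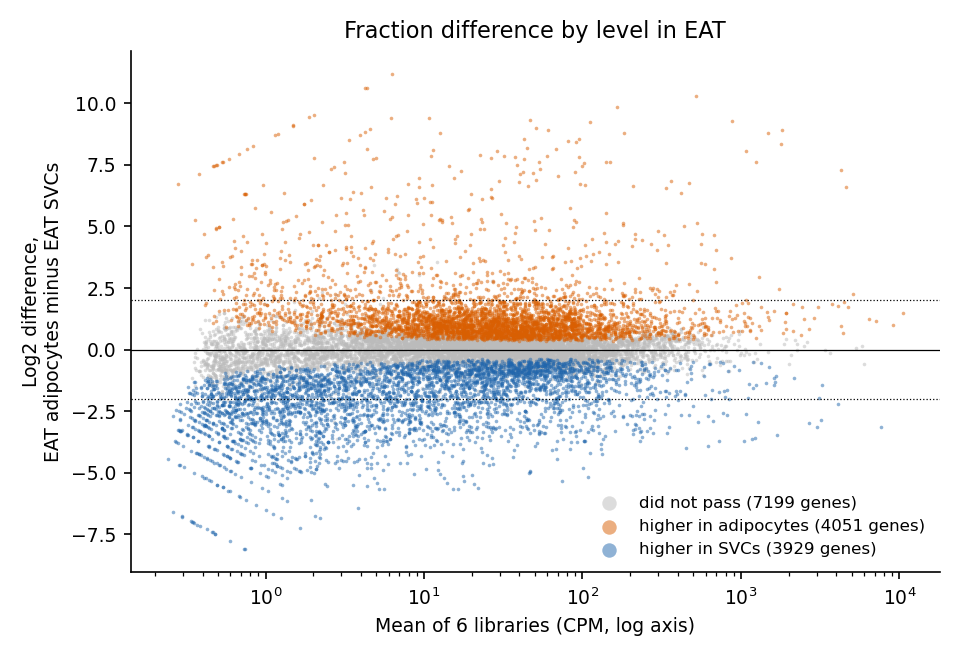
Log2 difference between EAT adipocytes and EAT SVCs (vertical axis) against the mean level over the 6 libraries in CPM (horizontal log axis), 1 point per gene; dotted lines mark 4-fold. Orange points (4051 genes) were higher in adipocytes, blue points (3929) were higher in SVCs and grey points (7199) did not pass. Blue points below the lower dotted line crowd at the low levels on the left. Differences of at least 4-fold in favour of adipocytes occur at all levels and most often at low ones. They number 293, 183, 105 and 116 genes from the lowest to the highest of the 4 level groups.

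As a share of the library, the 697 adipocyte genes took 8.32%, 13.0% and 10.9% of the counts in the 3 adipocyte libraries and 1.07%, 1.16% and 1.12% in the 3 SVC libraries. The 1584 SVC genes took 12.6%, 10.9% and 13.2% of the counts in the SVC libraries and 1.59%, 1.09% and 1.81% in the adipocyte libraries. These genes were chosen on the same values, so the shares describe them and test nothing. Adipocyte replicate 2 had the highest share of adipocyte genes and the lowest share of SVC genes of its group. The 697 adipocyte genes had a median length of 1923 bases and the 1584 SVC genes one of 3045 bases. Replicate 2 also had a strong trend with gene length, given below, and the part of that trend in its shares was not tested.

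Few genes were restricted to a fraction altogether. A level of at least 1 CPM in each of the 3 EAT adipocyte libraries together with no count in the 3 EAT SVC libraries was seen for 10 genes, and the reverse for 1 gene. The mean levels of the 10 genes in adipocytes were low, from 1.44 to 11.7 CPM with a median of 3.12. They were 882 to 4969 bases long, and 5 of the 10 had a single transcript. A count of 0 over the 3 SVC libraries allows a level of up to 0.0415 CPM (3 counts, counting error only). In IAT, 3 of the 10 genes again had no count in SVCs and at least 1 CPM in every adipocyte library. With a minimum of 0.5 CPM the numbers were 19 and 13, and with 5 CPM they were 3 and 0. Without adipocyte replicate 1, 2 or 3 the single gene found in SVCs became 4, 4 or 6 genes, and without SVC replicate 2 it became 2.

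The 4 single genes were taken by rule: in each direction the gene with the largest difference and the most abundant gene at least 4-fold apart, among those with at least 10 CPM in the higher fraction, no overlap between libraries and the same call without adipocyte replicate 2. In all, 5079 tested genes (33.5%) had every adipocyte library above every SVC library and 5182 (34.1%) the reverse. The conditions other than 4-fold were met by 3253 adipocyte-high and 2122 SVC-high genes. Of these, 432 and 614 were at least 4-fold apart. The sources used here do not give what these 4 genes encode.

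The gene uc008hfw.1 (1 transcript, 1353 bases) had the largest difference in favour of adipocytes. It stood at 12.3, 13.8 and 11.6 CPM in the 3 adipocyte libraries, from 243, 254 and 261 counts, and had no count in any SVC library. Its mean in adipocytes was 12.6 ± 1.09 CPM (SD, n = 3), or 11.7 CPM on total counts. On total counts it was at least 283-fold higher than the floor of 3 counts over the SVC group, 0.0415 CPM (adjusted p = 6.53e-05, edgeR), and at least 278-fold without adipocyte replicate 2 (adjusted p = 6.09e-06, edgeR). In IAT it was present at 29.3, 15.7 and 25.9 CPM in adipocytes and at 0.111, 0.0394 and 0.117 CPM in SVCs, so it was near the floor in SVCs of both depots. It was weakly expressed for a gene of such contrast: the authors' TPM values of 18.1, 13.7 and 17.3 placed it far below the most abundant adipocyte genes.

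The gene uc008hpr.2 (1 transcript, 4837 bases) was the most abundant gene at least 4-fold higher in adipocytes. It stood at 8542, 8235 and 10579 CPM in adipocytes and at 109, 82.7 and 86.4 CPM in SVCs. The fractions lay about 98.4-fold apart, or 6.62 on the log2 scale (SE 0.25, adjusted p = 1.47e-05, edgeR). Every adipocyte library stood above every SVC library, which was a condition for choosing the gene. Without adipocyte replicate 2 the log2 difference was 6.68 (SE 0.22). Per length, its mean of 3089 TPM in adipocytes ranked 34 among all genes, and its mean of 42.6 TPM in SVCs ranked 3646. In IAT the gap was wider, with 23060, 24266 and 26584 CPM in adipocytes and 126, 101.4 and 99.2 CPM in SVCs, a log2 difference of 7.82 (SE 0.18). The difference between depots passed the interaction test (log2 -1.03, SE 0.24, adjusted p = 0.0114, edgeR), and did so without adipocyte replicate 2 (log2 -0.95, adjusted p = 0.0072, edgeR).

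The gene uc029swm.1 (1 transcript, 2968 bases) had the largest difference in favour of SVCs under the rule. It stood at 10.5, 6.29 and 15.99 CPM in SVCs, from 261, 150 and 456 counts. In adipocytes it had 0, 1 and 12 counts, so nearly all of its adipocyte signal lay in replicate 3. The log2 difference was -5.67 (SE 0.81, adjusted p = 0.00122, edgeR) and -5.26 (SE 0.72) without adipocyte replicate 2. It was -8.46 without adipocyte replicate 3 and -5.10 without adipocyte replicate 1, so that its size rested on single libraries while its direction did not. In IAT it stood at 3.51, 1.77 and 0.860 CPM in SVCs and at 0.147, 0.0533 and 0.0495 CPM in adipocytes, a log2 difference of -4.52 (SE 0.73). The interaction did not pass (log2 -0.97, adjusted p = 0.760, edgeR).

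The gene uc007awp.2 (2 transcripts, 5564 bases in mean over the 6 libraries) was the most abundant gene at least 4-fold higher in SVCs. It stood at 14271, 10751 and 16465 CPM in SVCs and at 1770, 800 and 2148 CPM in adipocytes, so no library overlapped and adipocyte replicate 2 was the lowest. The fractions lay 8.79-fold apart, or -3.14 on the log2 scale (SE 0.40, adjusted p = 0.00073, edgeR). Without adipocyte replicate 2 it was -2.83 (SE 0.26). Per length, its mean of 5483 TPM in SVCs ranked 13 among all genes, and its mean of 483 TPM in adipocytes ranked 304. It was thus an abundant RNA of the adipocyte fraction as well. Whether that RNA came from adipocytes was not tested. In IAT it stood at 14175, 13140 and 17936 CPM in SVCs and at 2370, 2057 and 2265 CPM in adipocytes, a log2 difference of -2.76 (SE 0.15), and the interaction did not pass (log2 -0.20, adjusted p = 0.807, edgeR).

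**Figure D2:**
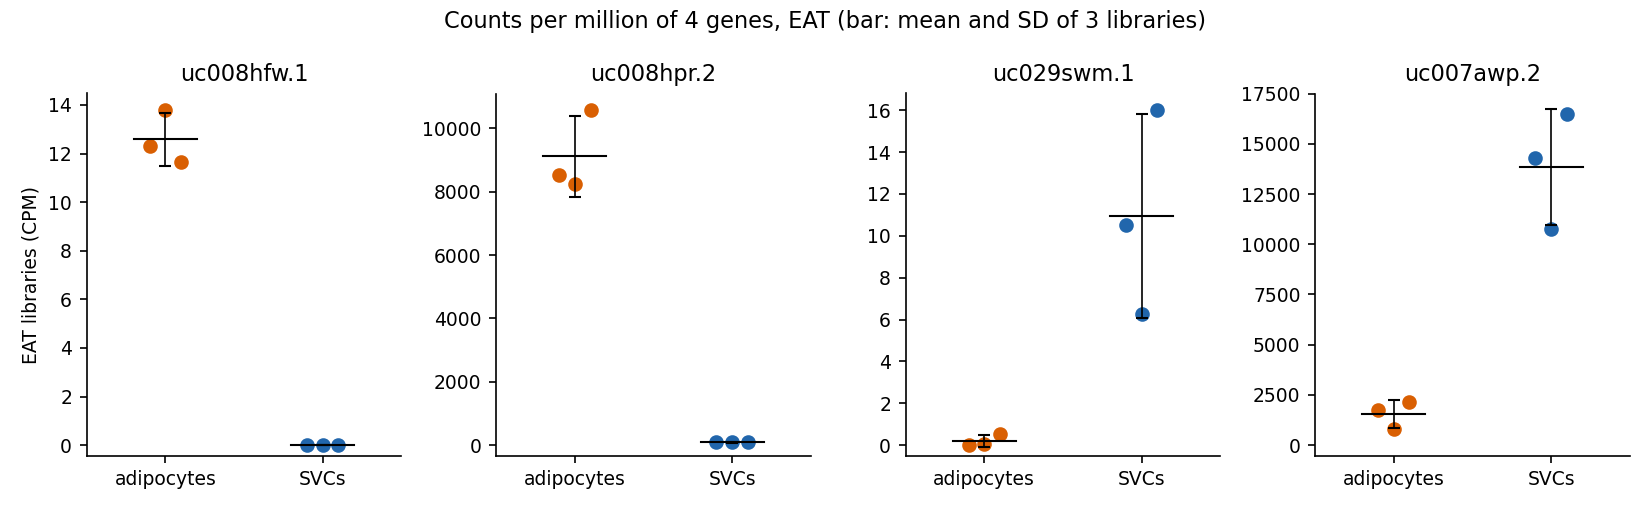
CPM of 4 genes in the 3 EAT adipocyte and 3 EAT SVC libraries (points), with the mean and SD (bars), 1 panel per gene with its own vertical axis. The libraries of the fractions do not overlap in any panel, which was a condition for choosing the genes. The panels run from a gene with no count in SVCs (uc008hfw.1) to a gene that stays at 800 to 2148 CPM in adipocytes (uc007awp.2).

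Gene length went with the direction of the difference. The tested genes were divided into 10 equal groups by length, the mean of the deposited gene lengths. Among the shortest genes (median 828.5 bases), 683 favoured adipocytes and 165 favoured SVCs, and the median log2 difference was 0.78. Among the longest (median 6796 bases), 114 favoured adipocytes and 558 favoured SVCs, with a median of -0.57. The share of calls in favour of adipocytes fell in each successive group, from 80.5% to 17.0%, against 50.8% over all calls. Across the 15179 genes the log2 difference and the length had a Spearman rho of -0.334, which describes genes that share the same libraries.

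Adipocyte replicate 2 carried much of the slope and not all of it. Relative to the mean of the SVC libraries, the median log2 difference of the shortest genes was 0.41, 1.34 and 0.38 in adipocyte replicates 1, 2 and 3, and that of the longest genes -0.31, -1.34 and -0.34. Replicates 1 and 3 therefore lay close together, on the same side of the SVCs as replicate 2 and much nearer to 0. Without replicate 2, 714 of the shortest genes favoured adipocytes and 279 favoured SVCs, and 271 of the longest favoured adipocytes and 789 favoured SVCs, with medians of 0.39 and -0.34 and a rho of -0.208 across genes. The counts of the minority direction thus rose by more than 1.5 times when the library was left out. Without SVC replicates 1, 2 and 3, the shortest genes higher in adipocytes numbered 381, 394 and 436, and without SVC replicates 1 and 2 the longest genes higher in adipocytes numbered 73 and 74.

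The same order was seen in the inguinal libraries, which share no library with EAT. In IAT the shortest genes had 819 calls in favour of adipocytes and 377 in favour of SVCs, and the longest 376 and 815, with medians of 0.64 and -0.39 and a rho of -0.195. The 3 IAT adipocyte libraries agreed closely, at 0.59, 0.62 and 0.66 for the shortest genes and -0.39, -0.40 and -0.37 for the longest. As a single value per library, the median log2 CPM of the shortest genes minus that of the longest was -1.84, 0.10 and -1.77 in EAT adipocytes and between -2.70 and -2.52 in EAT SVCs. The groups did not overlap (exact two-sided permutation p = 0.1, the smallest possible, and also p = 0.1 without adipocyte replicate 2). The effective length of the average transcript, weighted by TPM, was 1830, 1339 and 1813 bases in EAT adipocytes and 2038, 2048 and 1947 bases in EAT SVCs. The sources used here give no RNA quality values, and the part of RNA quality in the slope was not tested.

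**Figure D3:**
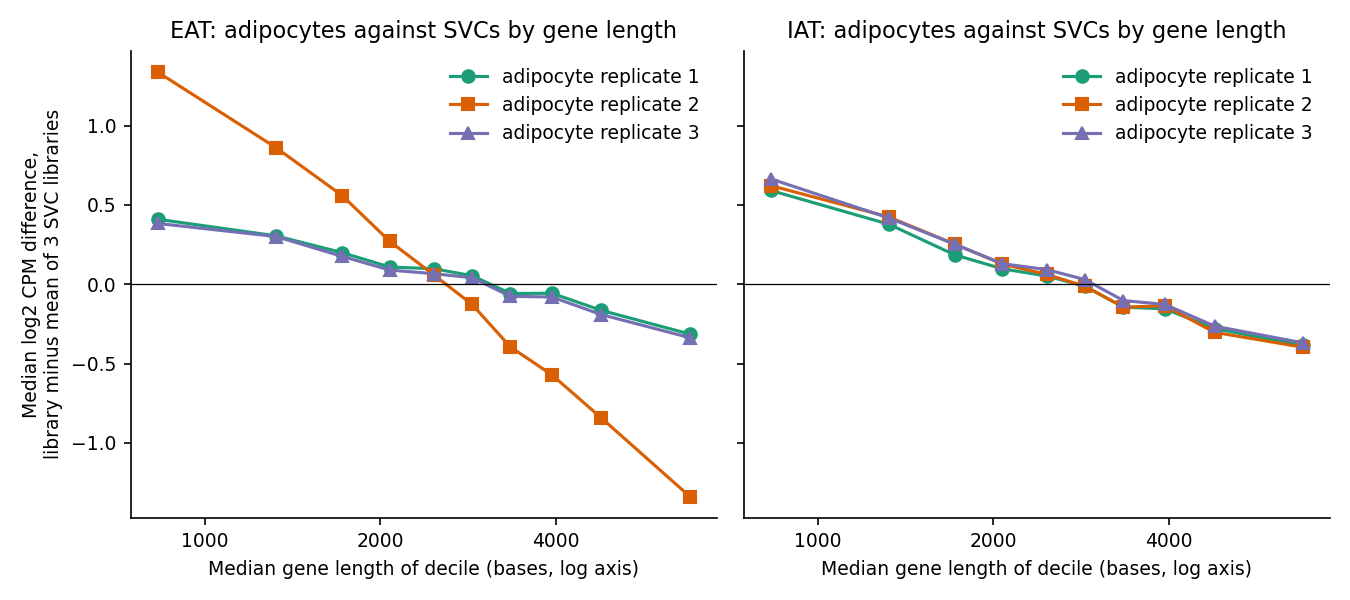
Median log2 CPM difference of each adipocyte library from the mean of the 3 SVC libraries of its depot (vertical axis) in 10 groups of genes ordered by length (horizontal log axis, median bases of the group). In EAT (left) replicate 2 runs from 1.34 to -1.34 and replicates 1 and 3 from about 0.4 to -0.3, and in IAT (right) all 3 replicates run from about 0.6 to -0.4.

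With each library's trend with length removed, which also takes out any difference in length between the fractions themselves, 4865 genes favoured adipocytes and 4289 favoured SVCs. At least 4-fold differences then numbered 631 and 1514. Of the 7980 original calls, 7213 were made again in the same direction and 1 was turned.

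The number of transcripts of a gene, the other property in the tables, split the calls less unevenly than length did. Of 5043 genes with a single transcript, 1514 favoured adipocytes and 1302 favoured SVCs (55.8% called, and 67.1% without adipocyte replicate 2). Of 10136 genes with several transcripts, 2537 favoured adipocytes and 2627 favoured SVCs (50.9% called, and 66.7% without that library). Genes with 5 or more transcripts leaned to SVCs, with 357 and 550 calls, but they were also longer (median 3513 bases, against 2175 for a single transcript). Within the shortest genes of a division into 3 by length, 70.5% of the calls on single-transcript genes and 70.8% of those on several-transcript genes favoured adipocytes. Among genes of middle length these shares were 46.7% and 52.3%, and among the longest 30.3% and 25.3%. Without adipocyte replicate 2 the shares were 63.5% and 65.9% among the shortest, 47.5% and 54.1% in the middle, and 36.2% and 34.4% among the longest. The share of genes called, single-transcript first, was 55.5% and 59.0% among the shortest, 58.3% and 51.7% in the middle, and 53.2% and 44.5% among the longest. Without adipocyte replicate 2 it was 65.4% and 68.7%, 68.8% and 64.9%, and 67.8% and 66.8%. The gap among the longest genes thus nearly closed without that library.

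For genes with several transcripts the deposited length is a mean weighted by the estimated abundance of each transcript. A change in it therefore records a change in the estimated mix of long and short transcripts. Of 7582 such genes with at least 50 counts in each of the 6 libraries, 5 were longer and 7 shorter in adipocytes (limma on log2 length, adjusted p below 0.05), or 0.158%. Without adipocyte replicate 2 there were 8 and 15 (0.303%). The weighted length differed by less than 5% between fractions for 78.2% of these genes, and for 89.4% without replicate 2. Of the 7582 genes, 688 were longer and 1200 shorter in adipocytes without overlap between libraries, whatever the size of the difference. Without replicate 2 these were 1219 and 1427. A difference of at least 20% without overlap was found for 20 of the 7582 genes longer and 115 shorter in adipocytes, but for 18 and 49 without replicate 2.

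The fraction difference recurred in the other depot. Fits to the 6 EAT and the 6 IAT libraries were made separately and share no library. Of 14744 genes tested in both, 3573 were higher in adipocytes in both depots and 3181 higher in SVCs in both, which is 87.6% of the EAT calls and 58.3% of the IAT calls on these genes. Another 125 were higher in adipocytes in EAT and in SVCs in IAT, and 119 the reverse. Without EAT adipocyte replicate 2 the numbers were 4221, 3949, 315 and 205. The log2 differences of the depots correlated at r = 0.876 across genes, which share the way of separating the cells. In IAT 78.6% of the genes tested passed, against 52.6% in EAT.

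Most genes with large differences in EAT differed in the same direction in IAT. Of the 697 genes at least 4-fold higher in EAT adipocytes, 681 were tested in IAT, 674 were higher in IAT adipocytes, 653 of them at least 4-fold, and 2 were higher in IAT SVCs. Of the 1584 genes at least 4-fold higher in EAT SVCs, 1375 were tested in IAT, 1311 were higher in IAT SVCs, 1032 of them at least 4-fold, and 14 were higher in IAT adipocytes. In the IAT libraries 39.4% of all genes tested were higher in adipocytes and 39.2% in SVCs. For the adipocyte genes the median log2 difference was 3.10 in EAT (2.82 without replicate 2) and 3.96 in IAT, although the genes had been chosen for their size in EAT. For the SVC genes it was -2.84 in EAT and -2.52 in IAT. Tested as an interaction in all 12 libraries, the difference between depots passed for 140 of the 697 adipocyte genes with the smaller difference in EAT and for 22 with the larger, where 18.1% of all genes passed in either direction. Without EAT adipocyte replicate 2 it passed for 318 and 28, where 36.6% of all genes passed. For the 1584 SVC genes the difference was larger in EAT for 156 and smaller for 37, where 18.1% of all genes passed. Without that library the numbers were 185 and 107, where 36.6% of all genes passed. The SVC genes too had been chosen for their size in EAT, which favours a larger difference there.

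**Figure D4:**
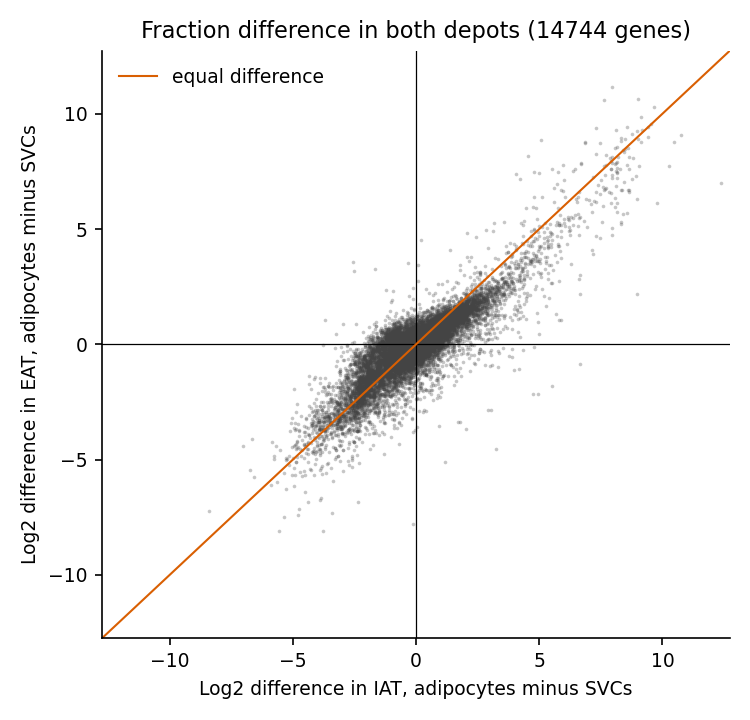
Log2 difference between adipocytes and SVCs in EAT (vertical axis) against IAT (horizontal axis) for the 14744 genes tested in both, 1 point per gene; the line marks equal differences. Most points follow the line (r = 0.876), and at the right, among genes far higher in adipocytes, the cloud lies below it.

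The reverse choice gave a measure of the EAT fractions that no EAT library had chosen. In IAT 1435 genes (9.46% of those tested there) were at least 4-fold higher in adipocytes and 1731 (11.4%) at least 4-fold higher in SVCs. Of the first, 1341 were tested in EAT: 1196 were higher in adipocytes, 13 were higher in SVCs and 132 did not pass, against 26.7% of all genes higher in EAT adipocytes. Their median log2 difference in EAT was 1.97 (quartiles 1.44 and 3.11), and 1.70 without replicate 2. Of the second, 1582 were tested in EAT: 1 was higher in adipocytes, 1430 were higher in SVCs and 151 did not pass, against 25.9% of all genes. Their median was -2.46 (quartiles -3.24 and -1.70), and -2.42 without replicate 2. Over all genes tested the EAT median was 0.00. By the interaction, the difference of the first set was smaller in EAT for 511 genes and larger for 12. That of the second set was smaller in EAT for 272 and larger for 12. Over all genes 18.1% passed in either direction in this fit, and 36.6% without EAT adipocyte replicate 2. The 2 sets were not counted without that library. The order in the second set was the reverse of that among the 1584 SVC genes chosen in EAT. Choice by size in a depot favours a larger difference in that depot, so neither order was free of the choice.

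Summed over each EAT library, the genes of IAT adipocytes took 16.1%, 21.8% and 20.4% of the counts in EAT adipocytes and 4.61%, 4.64% and 4.91% in EAT SVCs. The genes of IAT SVCs took 1.86%, 1.37% and 1.99% of the counts in EAT adipocytes and 11.9%, 10.5% and 12.3% in EAT SVCs. Neither pair of groups overlapped (exact two-sided permutation p = 0.1 for each, the smallest possible, with and without adipocyte replicate 2). The adipocyte libraries differed more among themselves than the SVC libraries in the share of adipocyte genes: replicate 1 was the lowest at 16.1%, and replicate 2 was the highest. Replicate 2 also had the lowest share of SVC genes. Among those tested in EAT, the IAT adipocyte genes had a median length of 2082.5 bases and the IAT SVC genes one of 2844 bases. The part of the length trend of replicate 2 in its shares was not tested.

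**Figure D5:**
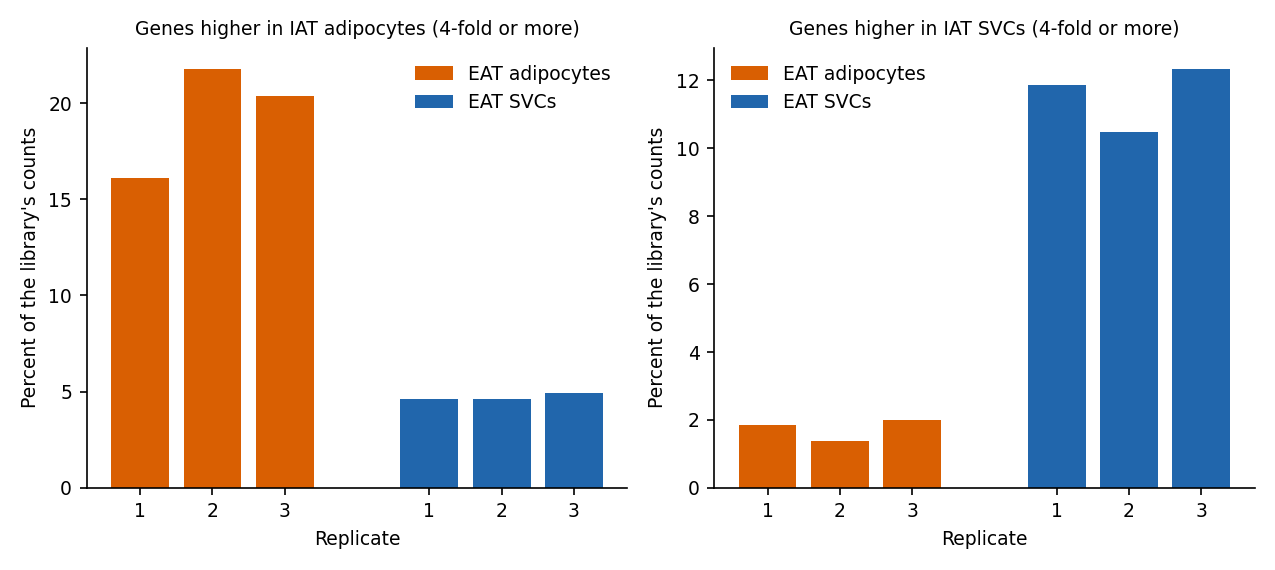
Percent of each EAT library's counts (bars, 1 per library) in the 1435 genes at least 4-fold higher in IAT adipocytes (left) and the 1731 genes at least 4-fold higher in IAT SVCs (right). On the left the 3 adipocyte libraries stand at 16.1% to 21.8% and the SVC libraries below 5%, and on the right the SVC libraries stand at 10.5% to 12.3% and the adipocyte libraries below 2%.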

How the data were processed

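RNA sequencing libraries of adipocytes and SVCs from EAT and IAT were analysed, with 3 libraries per group, grouped by the samples' labels. Per the file headers, each deposited table lists for every gene its length and effective length in bases, the expected count that RSEM estimated, and the TPM and FPKM values that the authors' run derived from it. The submitters' processing notes name the builds GRCm38 and mm10 and the tools limma, Bowtie2 2.2.6 and RSEM 1.2.25, with no role for each. The sources used here do not give the strand setting of the counting. Values of antisense or overlapping genes and of near-identical gene copies are therefore uncertain. The deposited TPM were used for levels between genes and for weighted lengths. The deposited FPKM were not used.

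Expected counts were rounded to whole numbers, genes with low counts were removed (filterByExpr, 15179 of 32182 kept, holding at least 99.9% of each EAT library's counts), libraries were scaled with TMM, and the 6 EAT libraries were fitted with edgeR 4.0.16 (R 4.3.3; quasi-likelihood test, two-sided, Benjamini-Hochberg adjustment over all genes tested, threshold 0.05, 4 residual degrees of freedom). The standard error of a log2 difference was computed as its size over the root of the F statistic. CPM use TMM-scaled library sizes, except for the count of genes found in a single fraction and for floors and lower bounds of a fold, where they use total counts. Depth gives 3 counts as 0.114 to 0.145 CPM in an EAT library. The interaction was fitted to all 12 libraries. Weighted lengths were tested with limma 3.58.1. This test, the offset by effective length and the interaction without EAT adipocyte replicate 2 were chosen after seeing the data.

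The comparison, the gene classes and the gene lists were chosen with earlier results of these data known. Gene lists by symbol were not analysed here, because the identifiers could not be matched to symbols. The named genes were, per direction, the gene with the largest log2 difference and the one with the highest mean CPM among genes at least 4-fold apart, under the conditions given above. Alternatives were other scalings (DESeq2 size factors, upper quartile, library size alone, TMM on genes of middle length), no filter, DESeq2 1.42.0, limma-voom with and without library weights, a joint fit to 12 libraries, a replicate block, removal of length trends, an offset by effective length, and leaving out each library. Tested on simulated data, the EAT comparison over 15179 genes with 100 genes changed 2-fold and 100 changed 4-fold recovered 18% and 89% of them, and 7.76% of the calls were false. In the data a far larger share of the genes, 52.6%, was called. The simulation also held no trend with length shared among genes. These rates therefore do not carry over to the calls on the data.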

Additional observations from a re-analysis of the deposited data

Results flagged for a closer look

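The fraction difference itself differed between the depots. By the interaction in the fit to all 12 libraries, it passed for 2867 of 15813 genes (18.1%, edgeR, adjusted p below 0.05), of which 1640 were more positive, that is more in favour of adipocytes, in EAT and 1227 more negative. Without EAT adipocyte replicate 2 it passed for 5876 genes (36.6%). Among the 697 genes at least 4-fold higher in EAT adipocytes, 140 had a smaller difference in EAT than in IAT and 22 a larger one (318 and 28 without that library). Among the 1584 genes at least 4-fold higher in EAT SVCs, 156 had a larger difference in EAT and 37 a smaller one (185 and 107 without that library). Both sets were chosen for their size in EAT. Among the 1731 genes at least 4-fold higher in IAT SVCs, 272 had a smaller difference in EAT and 12 a larger one (not counted without that library). The gene uc008hpr.2, the most abundant of the 697 adipocyte genes, had an interaction of -1.03 on the log2 scale (adjusted p = 0.0114, edgeR). In each depot every adipocyte library stood above every SVC library, which in EAT was a condition for choosing the gene.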

How the results depend on the processing

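Of 286 values under alternatives, 254 were counted as kept. Counts and percentages called had to stay within 1.5 times, and named genes had to keep their direction and call. Medians of gene-length groups had to keep their sign and move by less than the SD of the 3 adipocyte libraries. That SD includes replicate 2, so the shortest genes' median of 0.39 without it, against 0.78, was counted as kept. Shares of the 10 most abundant genes had to move by less than their SD. All 72 values of the 4 named genes were kept. Those genes were chosen for no overlap and the same call without adipocyte replicate 2, so this was largely set in advance. Leaving out single libraries gave 2523 to 5158 genes higher in adipocytes and 3090 to 5177 higher in SVCs, and 590 to 858 and 1614 to 1739 at 4-fold. It gave 381 to 731 of the shortest genes higher in adipocytes and 130 to 279 higher in SVCs, and 73 to 271 of the longest higher in adipocytes. It gave 1 to 6 genes found in SVCs alone. With library weights in limma-voom, 290 of the shortest genes were higher in SVCs and 262 of the longest higher in adipocytes. With length trends removed these were 422 and 491, and the medians of the shortest and longest genes were 0.0482 and 0.0591, the latter turned in sign, as the correction is built to do. The minimum of 0.5 or 5 CPM gave 19 or 3 genes found in adipocytes alone and 13 or 0 in SVCs alone. The 10 most abundant genes took 12.1% of the TPM against 8.84% of the counts in EAT adipocytes, and 8.38% against 7.12% in EAT SVCs. Without EAT adipocyte replicate 2, genes that went opposite ways in the depots numbered 315 and 205, the interaction 3270 and 2606, and genes of changed weighted length 8 and 15, with 49 shorter by at least 20%. The joint fit to 12 libraries gave 4815 and 5061 genes. Same-numbered libraries of the fractions correlated at 0.202, -0.0796 and 0.0257 in their deviations from the group means. Other pairings lay between -0.300 and 0.178. With 3 libraries per fraction, such values cannot tell whether same-numbered libraries came from the same mice. With the replicate block 3383 and 3644 genes passed. The causes of these changes were not tested. The alternatives on gene lists were not run, since identifiers had no symbols.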
